A study of Mus musculus with 12 samples.

Results

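The collagen genes of mouse brain were examined at 2 stages and in mutants of the gene Kat6b. All genes whose array symbol has the form Col, number, a, number were taken, which gave 42 genes on 82 probe sets. Of these, 23 genes (36 probe sets) had a log2 expression value over 4 on at least 3 of the 12 arrays and are called measured below, among 11449 measured genes in all. The probe set with the highest mean stood for a gene. The other 19 genes did not pass and are described at the end.

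All animals were of strain 129/Sv. The adult groups were dorsal cerebral cortex of males, 3 wild types aged 155, 112 and 101 days and 3 Qkf gt/gt mutants aged 155, 112 and 99 days. The embryonic groups were E12.5 dorsal telencephalon, taken at midgestation, 3 arrays of wild types and 3 of Qkf gt/gt mutants. Qkf is Kat6b, which encodes a histone acetyltransferase, and gt is known as its gene-trap allele, here homozygous. The labels give a mouse number for each adult and only the parents for each embryonic array. Each embryonic array is called an embryo here, although the number of embryos behind it is not stated. In the first cross were wild type 1 and mutant 1, and in the second the other 4 embryos. P-values measure the spread between these samples.

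Collagens are proteins built of chains wound around each other, most of them secreted and some, such as collagens XXIII and XXV, transmembrane. Fibrillar collagens form the fibres of connective tissue, collagen IV forms the sheet of basement membranes, and collagen VI forms beaded filaments around cells. In the brain, collagens are known chiefly from the meninges, the pial basement membrane and the walls of vessels, and a few, such as collagens XIX and XXV, are made by neurons. Dissected tissue carries a varying amount of meninges and vessels, and in bulk RNA fewer cells of a type and less RNA per cell cannot be told apart.

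Kat6b, the targeted gene, stood at 9.68, 9.35 and 9.72 in wild-type adults against 7.25, 7.17 and 6.92 in mutants. Embryos had 11.28, 11.40 and 11.42 against 6.22, 7.24 and 7.72. The groups did not overlap, so that each array went with its label. The expression values had a floor of 2.19, which understates any difference from it. All adults were in 1 array set and the embryos in another, with mutant embryo 1 in a later set, so that stage and array set cannot be told apart. Adult neuron markers stood at list means of 12.8 to 13.1 in adults and 5.62 to 6.21 in embryos. Forebrain identity markers stood at 10.7 to 11.2 in embryos. Markers of tissues outside the brain were mostly not measured, with 3 of 12 listed cartilage and bone markers and 1 of 8 skin markers past the filter.

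The wild-type stages differed in 18 of the 23 measured collagen genes, close to the 81.4% of all measured genes called between these groups (limma, adjusted p under 0.05). Of the 18, 14 were lower in adult cortex and 4 higher, where 43% and 38.4% of all genes were called lower and higher. The median difference, adult minus embryo, was -1.34 over the collagen genes and -0.08 over all genes on the log2 scale. Falls of at least 16-fold were made by 5 collagen genes, or 21.7%, against 3.55% of all genes. These counts describe the genes that passed the filter. Of the 23, 7 passed it through the embryos alone and 1 through the adults alone, so that the filter itself favours a difference in those 8. Among the 5 with falls of at least 16-fold, Col3a1, Col5a2, Col2a1 and Col18a1 passed through the embryos alone. Only Col4a5 passed in each stage by itself, so that the share of such falls carries the same limit. Among the 15 that passed in each stage by itself, 7 were lower in wild-type adults, 3 higher and 5 not called.

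**Figure D1:**
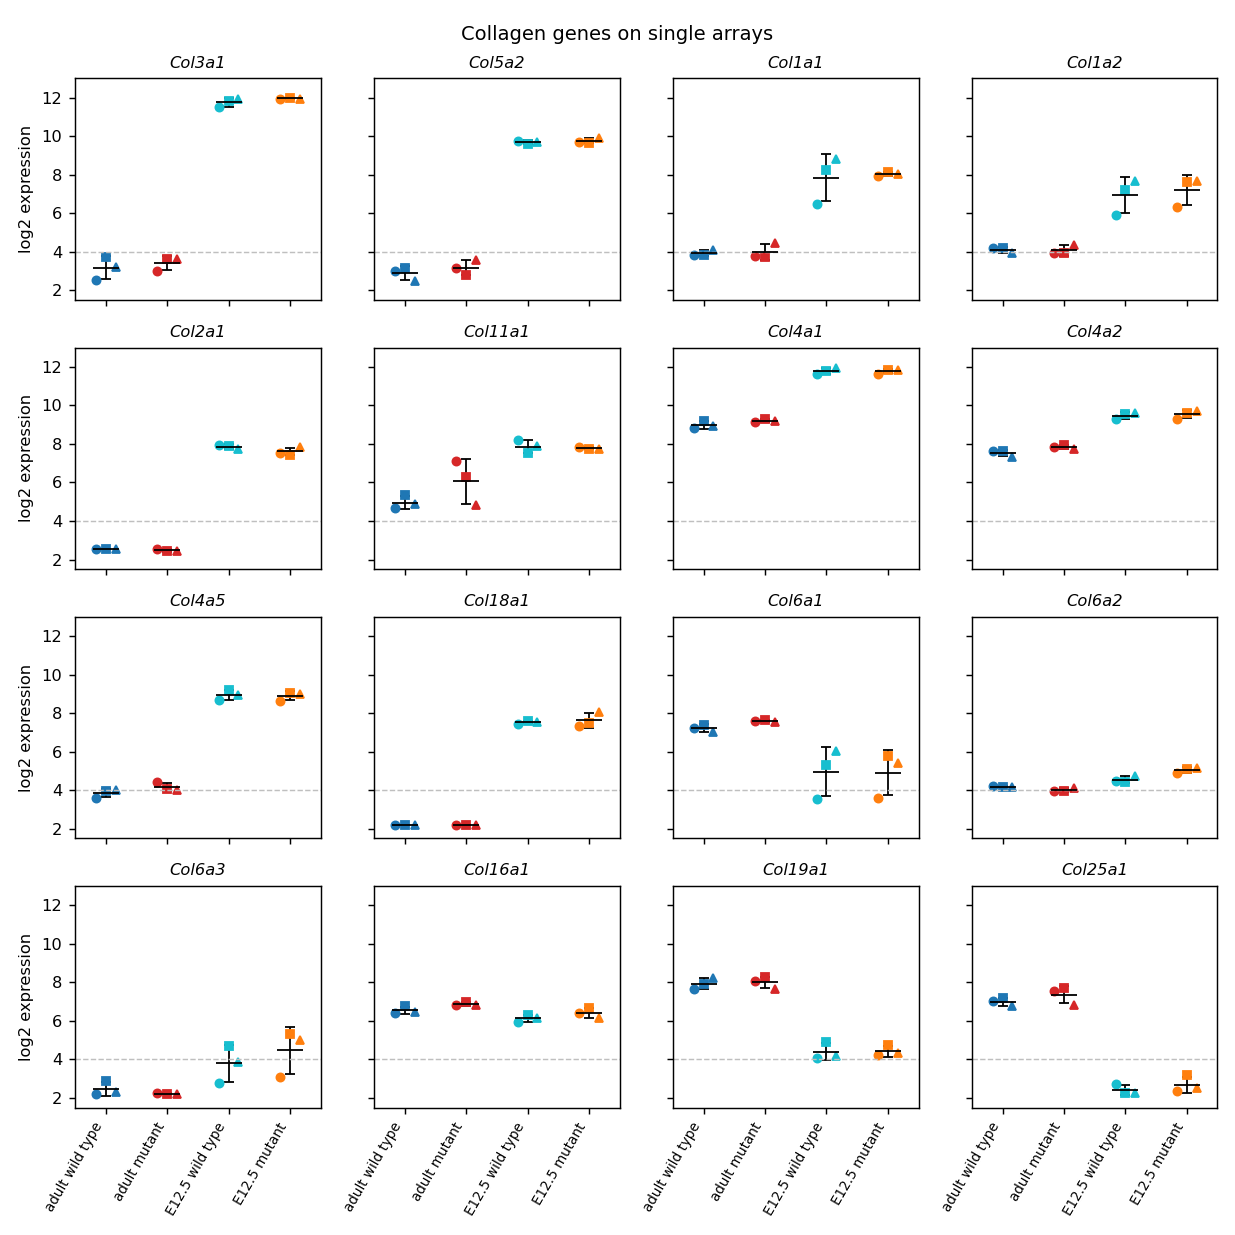
Log2 expression (vertical axis) of 16 collagen genes on single arrays in the 4 groups, with circle, square and triangle for replicates 1, 2 and 3 (replicate 1 is the first cross in embryos), black bars for the mean and SD (n = 3), and a dashed line at the filter value of 4. Col3a1 lies between 11.52 and 12 in all embryos and at most at 3.75 in all adults, Col25a1 and Col19a1 run the other way, and Col6a1 and Col6a3 are lowest among embryos in replicate 1 of both genotypes. Levels of different genes come from different probe sets and cannot be set against each other.

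The fibrillar collagens, of which 8 of 11 were measured, fell in 6 genes from embryonic to adult wild types and rose in none. Of those that fell, Col3a1, Col5a2, Col1a1 and Col2a1 passed the filter through the embryos alone, which favoured a fall. Col6a3, Col15a1 and Col18a1, in classes below, did so too. Counts by class stand beside the 43% of all genes called lower and the 38.4% called higher. Col3a1 encodes the chain of collagen III, a fibre of vessels and soft connective tissue. In wild-type embryos it stood at 11.52, 11.81 and 11.94, and mutant embryos had 11.93, 12 and 11.95. In adults it stood at 2.54, 3.75 and 3.22 in wild types and at 2.99, 3.61 and 3.63 in mutants. No embryo came near any adult, and the wild-type difference was -8.58 (SE 0.27, adjusted p = 9.1e-11). Col5a2, a chain of collagen V, is its neighbour on chromosome 1. Col5a2 read 9.77, 9.59 and 9.72 in wild-type embryos and 9.72, 9.65 and 9.91 in mutant embryos, against 2.46 to 3.15 in wild-type and 2.81 to 3.58 in mutant adults. The difference of -6.81 (SE 0.21, adjusted p = 7.5e-11) was the next in size.

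The 250 bases before the annotated start of Col3a1 (RefSeq, GRCm38.p6, chr1:45311288-45311537, plus strand) are shown because this gene had the largest difference of the family, with the single match to TATAAA in capitals. A match is a description of letters and not of a bound site. RefSeq windows from 250 bases before to 50 after a start were at hand for 33 of the 42 genes, in 36 windows, and for 18 of the 23 measured ones. TATAAA on either strand was in 13.9% of the collagen windows and in 13.6% of all 32851 windows.

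Col3a1: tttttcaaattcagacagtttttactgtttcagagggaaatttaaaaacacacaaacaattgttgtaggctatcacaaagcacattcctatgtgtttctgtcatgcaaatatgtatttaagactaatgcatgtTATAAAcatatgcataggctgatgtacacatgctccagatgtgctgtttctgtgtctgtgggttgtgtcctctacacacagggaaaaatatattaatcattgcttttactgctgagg

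Col1a1 and Col1a2 encode the chains of collagen I, the main fibre of skin, bone and the dura. Col1a1 read 3.83, 3.83 and 4.10 in wild-type adults and 3.79, 3.73 and 4.44 in mutants. Its embryos read 6.46, 8.23 and 8.80 in wild types and 7.95, 8.14 and 8.06 in mutants. The stages were apart, while wild-type embryo 1 lay well below the other embryos. The wild-type difference was -3.91 (SE 0.46, adjusted p = 8.8e-06). Col1a2 stood at 5.93, 7.21 and 7.69 in wild-type and at 6.33, 7.61 and 7.67 in mutant embryos, against 3.91 to 4.37 in adults. Embryo 1 of either genotype was the lower here, and the wild-type difference was -2.84 (SE 0.44, adjusted p = 8.4e-05). A further Col1a2 probe set gave -5.14.

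Col2a1 is the collagen of cartilage and is also transcribed in early neuroepithelium. It read 7.96, 7.90 and 7.72 in wild-type embryos and 7.55, 7.45 and 7.83 in mutants. In adults it was at 2.54 on all 3 wild-type arrays and at 2.54, 2.46 and 2.42 in mutants. The value of 2.54 was repeated on 4 of the 6 arrays, although mutants 2 and 3 read below it. The wild-type difference of -5.32 (SE 0.11, limma adjusted p = 3.6e-12) may therefore understate the change. Of the listed cartilage and bone markers, Acan, Matn1, Matn3, Comp and Cnmd did not pass the filter, while Hapln1, Sox9 and Alpl did. The list mean of these 3 was 6.40 to 6.99 in embryos and 6.13 to 6.41 in adults. The part of cartilage in the Col2a1 values was not tested. Col11a1, a minor chain of cartilage-type fibrils, read 8.20, 7.52 and 7.88 in wild-type and 7.86, 7.74 and 7.76 in mutant embryos. Wild-type adults stood at 4.65, 5.34 and 4.86, for a difference of -2.92 (SE 0.45, adjusted p = 8.5e-05).

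Col5a1, the other main chain of collagen V, did not give 1 answer. Its main probe set read 7.11 to 7.62 in wild-type adults and 6.73 to 7.31 in wild-type embryos, which overlap (difference 0.35, SE 0.22, adjusted p = 0.157). A further probe set read 5.21, 5.29 and 5.01 in wild-type adults and 7.73, 7.80 and 7.84 in wild-type embryos, a difference of -2.62. Which of the transcripts each probe set reads was not tested. Col27a1, a fibrillar collagen of cartilage, lay between 5.47 and 6.46 in all groups and was not called (difference -0.18, SE 0.19, adjusted p = 0.388).

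Collagen IV was measured in 3 of its 6 genes, and all 3 fell. Col4a1 and Col4a2 encode the chains present in nearly every basement membrane. Col4a1 read 11.63, 11.81 and 11.93 in wild-type and 11.65, 11.82 and 11.86 in mutant embryos. Adults read 8.84, 9.21 and 8.92 in wild types and 9.13, 9.28 and 9.20 in mutants. All arrays lay far above the floor, and the wild-type fall was 6.95-fold (log2 difference -2.80, SE 0.12, adjusted p = 1.6e-09). Col4a2 stood at 9.29, 9.53 and 9.59 in wild-type and at 9.31, 9.60 and 9.72 in mutant embryos. In adults it stood at 7.61, 7.62 and 7.33 in wild types and at 7.83, 7.92 and 7.76 in mutants, and the wild-type fall was 3.87-fold (-1.95, SE 0.14, adjusted p = 8.4e-08). Both genes kept a measured level in the adult cortex, unlike the chains of collagen III.

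Col4a1 and Col4a2 lie on opposite strands of chromosome 8, with annotated starts 21 bases apart. The minus-strand Col4a1 start (11312826) lies above the plus-strand Col4a2 start (11312805). As annotated, the first bases of the 2 genes therefore overlap, and beyond them the genes run apart. Their promoter windows share 78 bases. The stretch from 13 bases before to 13 after the Col4a2 start is shown because it holds the match to CCCTCCCC and the match to GGGCGG that lie in the shared bases (RefSeq, GRCm38.p6, chr8:11312792-11312817, plus strand, both matches in capitals). Both matches lie after the Col4a1 start, beginning at its bases 10 and 28. The shared bases held 0 matches to TATAAA and 0 to CCAAT.

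Col4a2: CCCTCCCCtcggcagtgcgcGGGCGG

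Searched on both strands, CCCTCCCC was in 30.6% of the collagen windows against 10.8% of all windows, and GGGCGG in 61.1% against 35.7%. The overlapping windows of the 2 genes count the same letters more than once, and no test was made. CCAAT was in 36.1% against 37.4%. The difference of windows says nothing of which factor binds.

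Col4a5 encodes a further chain, found in a subset of basement membranes. It read 8.69, 9.19 and 8.92 in wild-type and 8.63, 9.07 and 9.01 in mutant embryos, against 3.60, 3.95 and 4.01 in wild-type and 4.43, 4.08 and 4.01 in mutant adults. The wild-type difference was -5.08 (SE 0.18, adjusted p = 2.7e-10). Its partner Col4a6, whose start lies 1343 bases away on the opposite strand, did not pass the filter. Col4a6 was at 2.58 on all 6 adult arrays and reached 3.70 in wild-type embryo 2 and 3.85 in mutant embryo 3. Col4a3 and Col4a4, chains of the kidney filter, stood at or next to the floor on every array.

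Collagen VI was measured in 3 of 5 genes, and its main probe sets gave 1 rise and 2 falls, whose calls did not hold in all alternatives. Col6a1 read 7.25, 7.39 and 7.0 in wild-type and 7.59, 7.66 and 7.54 in mutant adults. Embryos read 3.56, 5.33 and 6.01 in wild types and 3.59, 5.75 and 5.39 in mutants. All adults lay above all embryos, and the wild-type rise was 2.25 (SE 0.61, adjusted p = 0.0050), with the embryos spread over more than 2 log2 units. The main probe sets of Col6a2 and Col6a3, the partner chains of the same filament, went the other way. Col6a2 read 4.21, 4.17 and 4.16 in wild-type adults and 4.46, 4.43 and 4.74 in wild-type embryos (-0.36, SE 0.12, adjusted p = 0.0129), a call lost without wild-type embryo 3 (-0.26) and when its probe sets were averaged (-0.11). A further Col6a2 probe set gave a difference of 0.14, in the direction of Col6a1, and was not called. Col6a3 read 2.21, 2.87 and 2.29 in wild-type adults against 2.79, 4.71 and 3.89 in wild-type embryos. Its groups overlapped, and the call (-1.34, SE 0.56, adjusted p = 0.0454) was lost in 8 of 20 alternatives, among them leaving out wild-type adult 1 (adjusted p = 0.113), wild-type adult 3 (0.106) or wild-type embryo 3 (0.0937). Col6a1 and Col6a2 are neighbours on chromosome 10.

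The multiplexins, collagens of vascular and epithelial basement membranes, both fell. Col18a1, whose end fragment is endostatin, read 7.46, 7.59 and 7.56 in wild-type and 7.32, 7.51 and 8.08 in mutant embryos, and 2.21 on all 6 adult arrays. That value is next to the floor, so that the difference of -5.32 (SE 0.16, adjusted p = 6.3e-11) understates the change. Col15a1 read 5.07, 3.5 and 4.82 in wild-type and 5.0, 3.78 and 4.61 in mutant embryos against 3.36 or 3.37 on wild-type adult arrays (-1.10, SE 0.37, adjusted p = 0.0177). The call was lost without wild-type embryo 1 (-0.79) or wild-type embryo 3 (-0.92). Col26a1, a collagen outside the main classes, read 5.30, 5.81 and 5.43 in wild-type embryos and 4.53, 4.13 and 3.18 in wild-type adults (-1.57, SE 0.44, adjusted p = 0.0060).

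The rises toward adult cortex were in Col25a1, Col19a1, Col6a1 and Col16a1. Col25a1 encodes a transmembrane collagen of neurons, known as a component of amyloid plaques. It read 7.03, 7.17 and 6.77 in wild-type and 7.56, 7.69 and 6.85 in mutant adults, against 2.72, 2.27 and 2.27 in wild-type and 2.37, 3.17 and 2.50 in mutant embryos. The wild-type difference was 4.57 (SE 0.26, adjusted p = 1.4e-08), from embryonic values near the floor, and it passed the filter through the adults alone. Its 250 upstream bases (RefSeq, GRCm38.p6, chr3:130180595-130180844, plus strand) are shown as those of the largest rise among the main probe sets. Capitals mark a match to CCAAT, a match to GGGCGG on the opposite strand and another on the gene's strand.

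Col25a1: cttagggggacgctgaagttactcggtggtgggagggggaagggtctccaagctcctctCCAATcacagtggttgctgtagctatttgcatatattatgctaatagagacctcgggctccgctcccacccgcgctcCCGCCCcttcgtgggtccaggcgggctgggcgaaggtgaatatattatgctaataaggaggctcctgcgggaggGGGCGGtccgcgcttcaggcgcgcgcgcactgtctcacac

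Col19a1 belongs to the FACIT collagens, which attach to the surface of fibrils, and is made by interneurons. It read 7.65, 7.91 and 8.24 in wild-type and 8.07, 8.26 and 7.67 in mutant adults. Wild-type embryos read 4.08, 4.90 and 4.20 and mutant embryos 4.21, 4.75 and 4.34, for a wild-type rise of 11.6-fold (3.54, SE 0.25, adjusted p = 9.2e-08). A further probe set went from 2.24 to 2.36 in wild-type embryos to 8.16 to 8.53 in wild-type adults, a difference of 6.11. Col16a1, another FACIT collagen, rose by less, from 5.93, 6.31 and 6.16 to 6.41, 6.76 and 6.47 (0.41, SE 0.15, adjusted p = 0.0258). That call was lost without wild-type adult 2 (0.31) or wild-type embryo 1 (0.31). Col9a3 and Col20a1, also FACIT collagens, lay between 4.44 and 5.33 and between 4.07 and 4.53 over all arrays and were not called, at differences of -0.05 (SE 0.23) and 0.09 (SE 0.10).

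**Figure D2:**
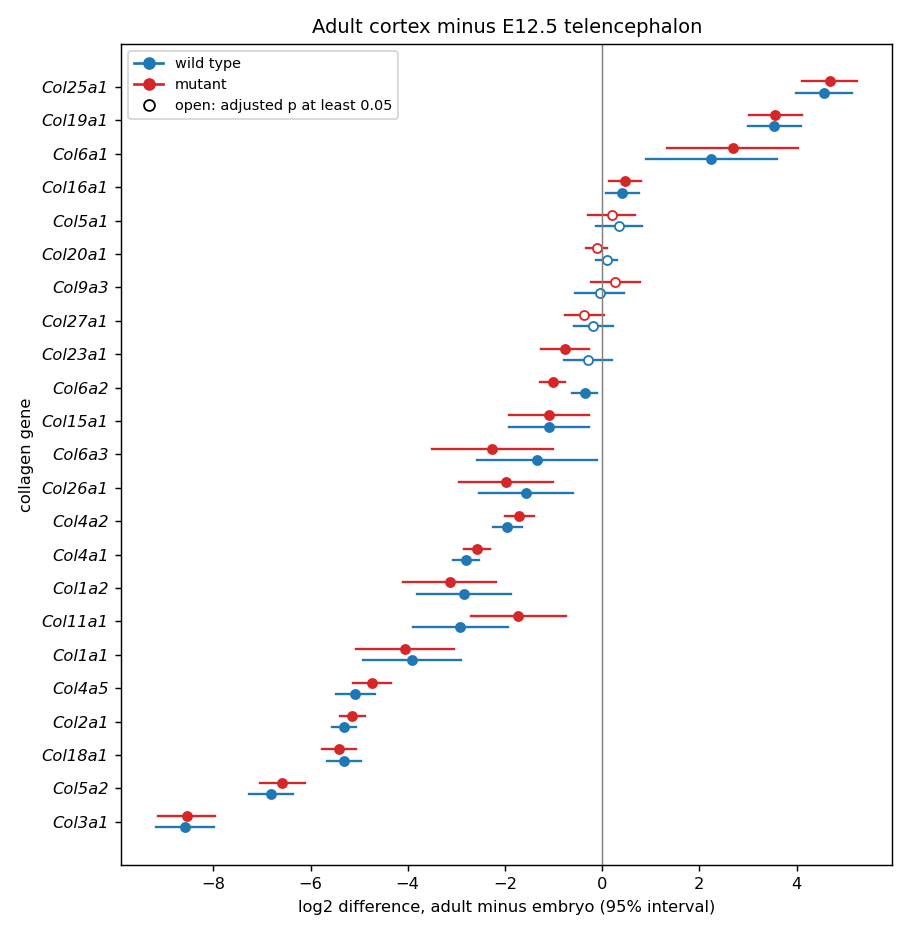
Log2 difference between adult cortex and E12.5 telencephalon (horizontal axis, adult minus embryo) for the 23 measured collagen genes, with 95% intervals, in wild types (blue) and mutants (red); filled points passed an adjusted p of 0.05. Differences run from -8.58 for Col3a1 to 4.57 for Col25a1 in wild types and from -8.55 to 4.69 in mutants, and Col23a1 is filled in mutants and open in wild types.

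In mutants 19 of the 23 genes were called between stages, against 81.7% of all genes, with 15 lower and 4 higher in adults, where 42.2% and 39.5% of all genes were. The extra gene was Col23a1, a transmembrane collagen. Col23a1 read 4.84, 4.83 and 4.98 in mutant adults and 5.83, 5.70 and 5.42 in mutant embryos (-0.77, SE 0.23, adjusted p = 0.0082), while wild types read 5.22, 5.41 and 4.79 in adults and 4.94, 5.45 and 5.88 in embryos (-0.29, SE 0.23, adjusted p = 0.259). The test of the difference between genotypes did not pass (-0.48, SE 0.32, adjusted p = 0.936). Of the other probe sets of Col23a1, one gave -0.03 and another -0.21 between mutant stages, neither of them called. The wild-type and mutant stage differences lay close for Col3a1 (-8.58 and -8.55) and Col25a1 (4.57 and 4.69). They lay further apart for Col11a1 (-2.92 and -1.72), Col6a3 (-1.34 and -2.26) and Col6a2 (-0.36 and -1.02), and no such gap passed the test of the difference.

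The machinery that makes and holds collagen was compared between wild-type stages by lists of known function. The counts are to be read against the 43% of all genes called lower and the 38.4% called higher. Of 15 measured genes of collagen synthesis and folding, 8 were lower in adults and 2 higher. Serpinh1, the collagen chaperone of the endoplasmic reticulum, read 11.52, 11.40 and 11.38 in wild-type embryos and 5.24, 6.22 and 6.0 in wild-type adults (-5.61, SE 0.25, adjusted p = 1.5e-09). Plod2, a lysyl hydroxylase, fell by 3.96 (SE 0.22) and Ppib, a prolyl isomerase, by 1.92 (SE 0.10). All 6 measured collagen receptors were lower in adults. Among them Adgrg1, the adhesion receptor for collagen III in the developing cortex, read 8.99, 9.23 and 9.43 in wild-type embryos and 6.08, 6.60 and 6.55 in adults (-2.81, SE 0.19, adjusted p = 6.3e-08). Itgb1, the shared integrin subunit, fell by 2.34 (SE 0.20) and Ddr1, a receptor kinase, by 2.05 (SE 0.13).

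Of 16 other basement membrane genes, 10 were lower in adults and 1 higher. Lama1, the laminin chain of early basement membranes, differed by -5.24 (SE 0.12), Nid1 by -4.56 (SE 0.16) and Nid2 by -3.93 (SE 0.13). Collagen-binding matrix genes went both ways, with 5 of 10 higher and 4 lower. Lum, a proteoglycan of connective tissue fibrils, read 8.55, 8.91 and 9.40 in wild-type embryos and at most 2.79 in wild-type adults (-6.17, SE 0.17), while Fmod, its relative, rose by 4.98 (SE 0.36). Cleavage and cross-linking genes had 3 lower and 1 higher of 7, and degradation genes 3 lower and 3 higher of 7, shares lower that were near that of all genes. Among the latter the inhibitor Timp4 rose by 5.63 (SE 0.14) and the membrane protease Mmp14 fell by 3.42 (SE 0.33).

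**Figure D3:**
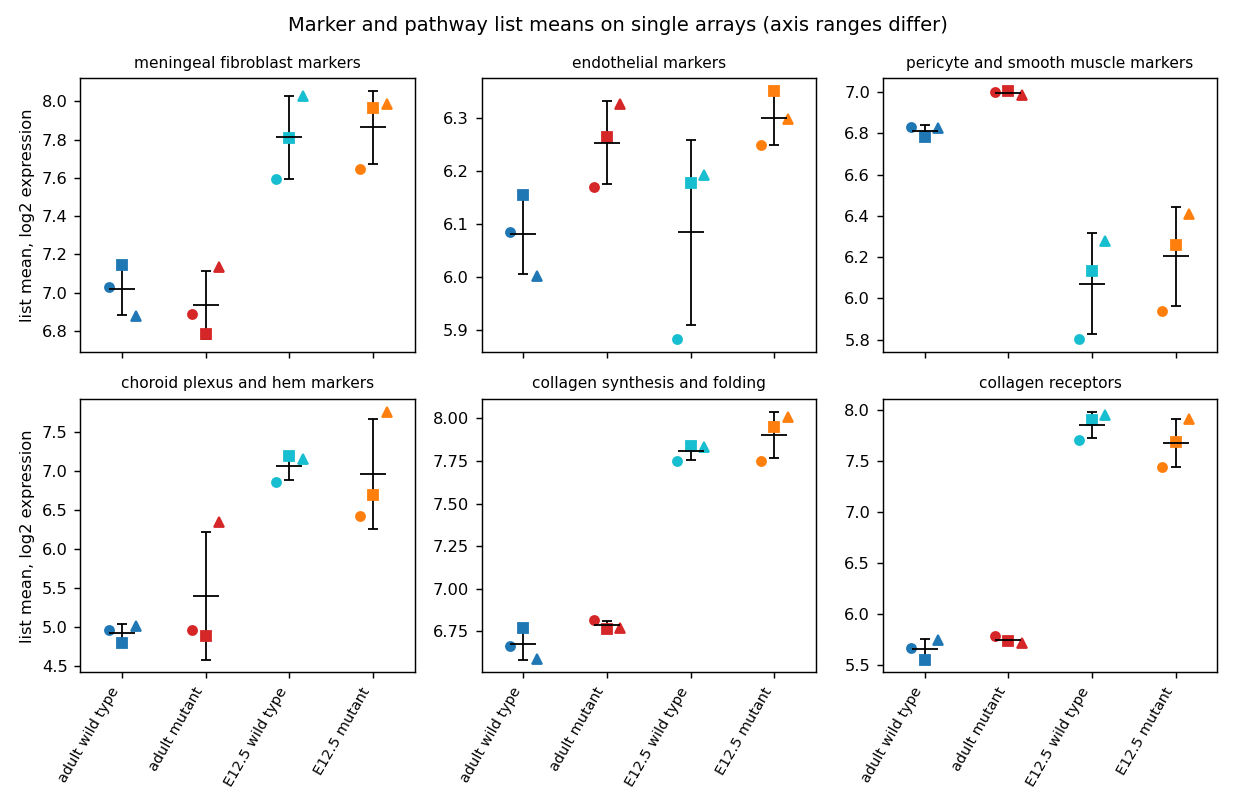
Mean log2 expression of the measured genes of 6 lists (vertical axes, whose ranges differ) on single arrays in the 4 groups, with circle, square and triangle for replicates 1, 2 and 3 and black bars for mean and SD (n = 3). Meningeal markers lie at 6.78 to 7.14 in adults and 7.59 to 8.03 in embryos, endothelial markers are higher in mutants than in wild types at each stage, and collagen receptors lie at 5.55 to 5.78 in adults and 7.45 to 7.96 in embryos.

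Markers of the cells that make collagen also differed between stages, again beside 43% of all genes called lower and 38.4% higher. Of 16 measured meningeal fibroblast markers, 9 were lower and 4 higher in wild-type adults, with list means of 6.88 to 7.14 in wild-type adults and 7.59 to 8.03 in wild-type embryos. Crabp2, a retinoid carrier of embryonic meninges, stood at 9.98 to 11.4 in wild-type embryos and 3.98 to 4.34 in wild-type adults, while Mgp, a matrix protein of vessels and adult meninges, stood at 2.78 to 3.66 and 7.5 to 8.04. Of 13 endothelial markers 6 were lower, near the share of all genes, and 3 higher, a smaller share than that of all genes. Their list means were 6.0 to 6.15 in wild-type adults and 5.88 to 6.19 in wild-type embryos. Of 9 pericyte and smooth muscle markers 3 were lower and 6 higher, with list means of 6.78 to 6.83 and 5.80 to 6.28. Among listed markers, Foxc2, Slc6a13, Twist1 and Osr1 of the meninges, Kdr of endothelium and Kcnj8, Anpep, Myh11 and Cnn1 of the vessel wall did not pass the filter. The part of these cell types in the collagen differences was not tested.

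No measured collagen gene passed an adjusted p of 0.05 between Kat6b mutants and wild types. In adult cortex the count was 0 of 23, where 0.0524% of all genes were called, and at an unadjusted p under 0.05 it was 2 of 23 (8.7%), where 4.54% of all genes were. In embryonic telencephalon it was 0 of 23, where 0.0349% of all genes were called, and 1 of 23 (4.35%) at an unadjusted p under 0.05 against 4.51%. The lack of a call does not show that the levels were equal. The 95% intervals of the main fit reached from 0.22 to 1.34 log2 units on either side of a difference. For the best measured genes small changes, and for Col6a1 changes of more than 2-fold, remained within that error. The main fit pools the spread of the 4 groups and leaves out cross. Col6a1 had SDs of 0.20 and 0.06 in wild-type and mutant adults, against 1.26 and 1.16 in embryos. Its embryonic mutant difference was 0.03 in the first cross and -0.10 in the second. Median differences were 0.07 in adults and 0.07 in embryos, against 0.03 and -0.01 over all genes. The mutant mean was the higher in 14 of 23 collagen genes in adults, counting Col18a1 with its 1 repeated adult value, and in 58.9% of all genes. In embryos it was the higher in 16 of 23, and in 46.2% of all genes.

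**Figure D4:**
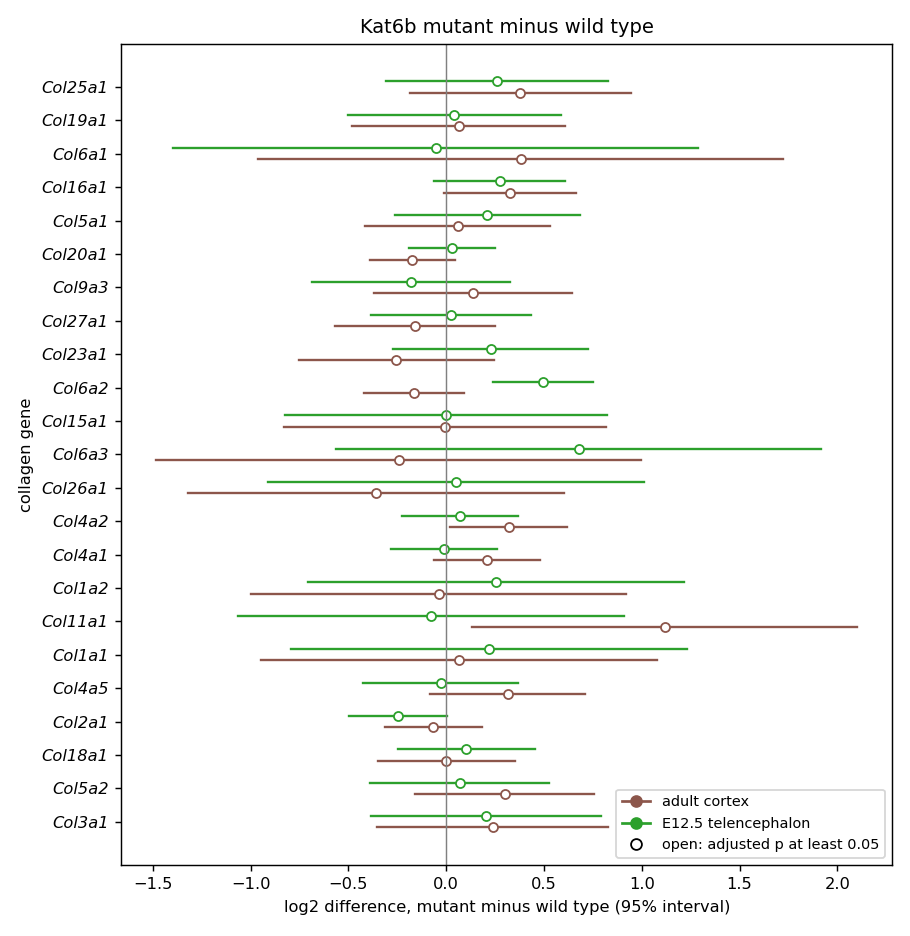
Log2 difference between Kat6b mutant and wild type (horizontal axis) for the 23 measured collagen genes with 95% intervals, in adult cortex (brown) and E12.5 telencephalon (green). All points are open, since none passed an adjusted p of 0.05, and only the intervals of Col11a1 and Col4a2 in adults and of Col6a2 in embryos leave out 0.

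Col11a1 had the largest difference in adults. Mutants read 7.11, 6.27 and 4.82 and wild types 4.65, 5.34 and 4.86. Mutants 1 and 2 lay above every wild type and mutant 3 lay among them, and the difference of 1.12 (SE 0.45, 95% interval 0.13 to 2.10) had an unadjusted p of 0.030 and an adjusted p of 1 in limma. A further probe set showed the same arrays high, at 6.30 and 5.71 in mutants 1 and 2 and 4.56 in mutant 3, against 4.31 to 4.57 in wild types. The difference between the 3' and 5' control probe sets of actin, a measure of RNA integrity, was 1.91 and 1.47 in mutants 1 and 2 and 1.06 to 1.13 on the other 4 adult arrays. Its part in the result was not tested. Leaving out 1 array moved the difference between 0.59, without mutant 1, and 1.74, without mutant 3.

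No collagen IV gene passed the test in adults. For Col4a2 the mutants did not overlap the wild types (difference 0.32, SE 0.14, unadjusted p = 0.038, adjusted p = 1). Col4a1 differed by 0.21 (SE 0.12) and Col4a5 by 0.32 (SE 0.18), with overlap, and a further probe set of each gave -0.11 and -0.05. Mutant arrays lay above all wild types in 3 collagen genes (Col16a1, Col4a2 and Col6a1), where 6.73% of all genes did so, and below all in 2 (Col20a1 and Col6a2), where 2.66% did. Col16a1 read 6.81, 6.98 and 6.83 in mutants against 6.41, 6.76 and 6.47 (0.33, SE 0.15, adjusted p = 1). Col20a1 read 4.07, 4.32 and 4.34 against 4.36, 4.36 and 4.53 (-0.17, SE 0.10). Endothelial markers had list means of 6.17 to 6.33 in mutant and 6.0 to 6.15 in wild-type adults, with 0 of 13 called. Pericyte markers stood at 6.99 to 7.0 and 6.78 to 6.83. The part of either in these values was not tested.

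Mutant adult 3 had the choroid plexus marker Ttr at 15.2, against 6.78 to 9.18 on the other adult arrays, and a choroid plexus list mean of 6.35 against 4.79 to 5.01. It was below mutants 1 and 2 in Col11a1 and in Col25a1 (6.85 against 7.56 and 7.69), and above them in Col1a1 (4.44 against 3.79 and 3.73) and Col26a1 (4.52 against 3.54 and 2.70). For Col4a1 and Col16a1 it lay between them. Set against wild-type adults, mutant 3 lay within their range for Col11a1 (4.82 in 4.65 to 5.34), Col25a1 (6.77 to 7.17) and Col26a1 (3.18 to 4.53). For Col1a1 it lay above their range (3.83 to 4.10). The part of choroid plexus in its values was not tested.

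In embryos the smallest p was that of Col6a2. Mutants read 4.87, 5.08 and 5.16 and wild types 4.46, 4.43 and 4.74, and the groups did not overlap (0.49, SE 0.12, unadjusted p = 0.0014, adjusted p = 0.326). It was the single collagen gene with all mutants above all wild types, as 3.23% of all genes were, and 0 lay below, as 5.06% of all genes did. The difference was 0.41 in the first cross and 0.54 in the second. A further probe set, at low values, read 4.03, 4.5 and 4.90 in mutants and 3.90, 4.08 and 4.05 in wild types, with overlap. Endothelial list means were 6.25 to 6.35 in mutant and 5.88 to 6.19 in wild-type embryos, and Pecam1, an endothelial adhesion protein, stood at 5.03, 5.23 and 4.74 in mutants and 4.19, 4.19 and 4.43 in wild types (adjusted p = 0.115). Their part in the Col6a2 value was not tested.

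Other embryonic differences were within the spread. Col2a1 was lower by 0.25 in mutants (SE 0.11, adjusted p = 1), Col6a3 differed by 0.68 (SE 0.56), Col16a1 by 0.27 (SE 0.15), Col25a1 by 0.26 (SE 0.26) and Col23a1 by 0.23 (SE 0.23). The chains of collagen IV differed by -0.01, 0.07 and -0.03 (Col4a1, Col4a2 and Col4a5, SE 0.12, 0.14 and 0.18). Col3a1 differed by 0.20 (SE 0.27). None of the 6 lists of collagen machinery had a member called in either mutant comparison. The lowest adjusted p in them were those of P3h1, a prolyl hydroxylase that read 5.29, 5.06 and 5.12 in mutant and 4.59, 4.27 and 4.59 in wild-type embryos (0.67, SE 0.12, adjusted p = 0.140), and of Adamts3, a procollagen protease (-0.62, SE 0.13, adjusted p = 0.263).

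The difference between the adult and the embryonic effect of the mutation was called in 0 of 23 collagen genes and in 0% of all genes, and at an unadjusted p under 0.05 in 1 of 23 against 5.5%. That gene was Col6a2, at -0.66 (SE 0.16, adjusted p = 0.567). Col11a1 gave 1.19 (SE 0.63), Col4a5 0.34 (SE 0.25), Col4a2 0.25 (SE 0.19) and Col20a1 -0.20 (SE 0.14).

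Within the embryonic groups, several collagen genes followed the parental cross that the labels name. A limma contrast of the 2 embryos of the first cross with the 4 of the second, chosen after the data had been seen and fitted with the age pairs and crosses as blocks, called 3 of 23 collagen genes, all lower in the first cross, where 3.16% of all genes were called and 2.1% were called lower. Col6a1 read 3.56 and 3.59 in the first cross against 5.32 to 6.01 (-2.04, SE 0.19, adjusted p = 0.0021). Col6a3 read 2.79 and 3.08 against 3.89 to 5.30 (-1.80, SE 0.26, adjusted p = 0.0093). Col1a2 read 5.93 and 6.33 against 7.21 to 7.69 (-1.42, SE 0.19, adjusted p = 0.0076), and its further probe set gave -0.75, which was not called.

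**Figure D5:**
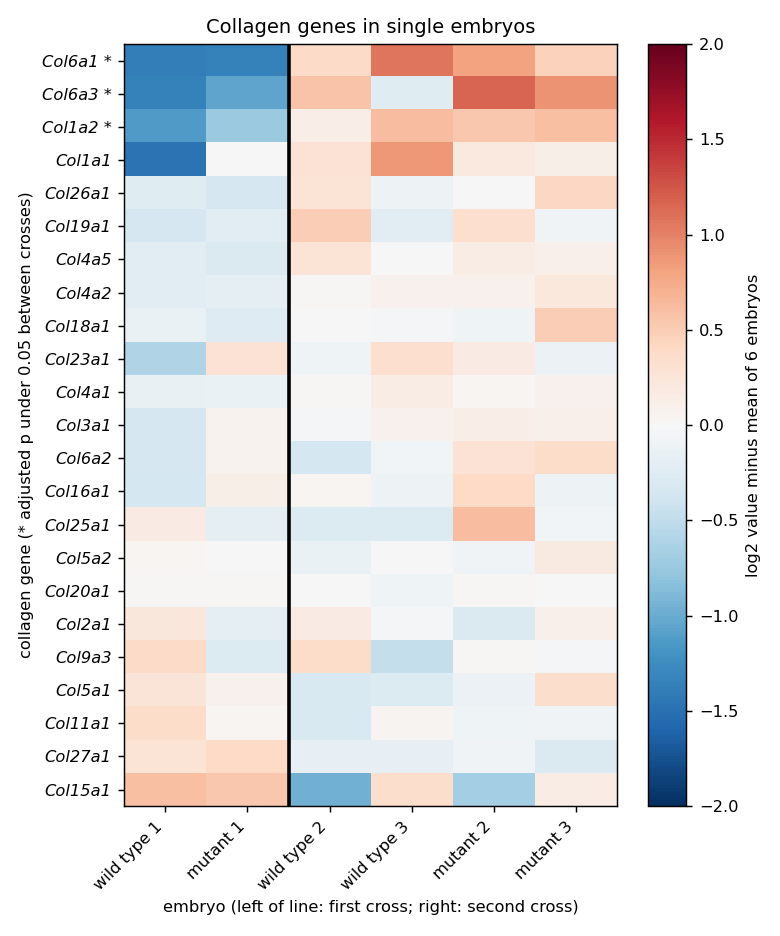
Log2 value of each measured collagen gene (rows) in each of the 6 embryos (columns, first cross left of the black line) minus the mean of the 6 embryos, in red above and blue below that mean, with a star at an adjusted p under 0.05 between crosses. Col6a1, Col6a3 and Col1a2 are blue in wild type 1 and mutant 1, and Col15a1 and Col27a1 are red in both.

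Mutant embryo 1, of the first cross, was also the array of the later set. Leaving out either embryo of the first cross leaves 1 array in that arm, which is then assumed to vary like the other groups, so that these p-values carry no check of its own spread. Without mutant embryo 1, wild-type embryo 1 against the second cross gave -2.11 for Col6a1 (adjusted p = 0.0174), -1.51 for Col6a3 (adjusted p = 0.0971), -1.52 for Col1a2 (adjusted p = 0.0495) and -2.05 for Col1a1 (adjusted p = 0.0132). Without wild-type embryo 1 the values were -1.98 for Col6a1 (adjusted p = 0.0405), -2.09 for Col6a3 (adjusted p = 0.0617) and -1.32 for Col1a2 (adjusted p = 0.110). With the embryos fitted on their own, none of the 3 was called, at adjusted p of 0.0526 to 0.0838. The Col1a2 call was also lost under quantile normalization (-0.70, adjusted p = 0.211), and whenever 1 adult array was left out, since its further probe set then had the higher mean. The first cross lay below the second without overlap in 9 collagen genes, where 16.3% of all genes did so, and above it in 2, where 11.6% did. The 9 included all 3 measured chains of collagen IV, by 0.21 to 0.39. Col15a1, at 5.07 and 5.0 against 3.5 to 4.82, was higher in the first cross (0.86, SE 0.35, adjusted p = 0.261), as was Col27a1 (0.51, SE 0.11, adjusted p = 0.0524).

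Between crosses, 1 of 15 synthesis and folding genes, 2 of 7 cleavage and cross-linking genes and 3 of 10 collagen-binding genes were called lower in the first, and 0 were called higher. All counts in this paragraph stand beside 3.16% of all genes called between crosses and 2.1% called lower. None was called among 6 receptors, 16 other basement membrane genes and 7 degradation genes. Of 16 meningeal markers 2 were lower and 1 higher. Lower in the first cross were also 2 of 9 pericyte markers, 2 of 7 forebrain identity markers and 1 of 8 choroid plexus markers, with 0 higher. Of 13 endothelial markers 0 were called. The genes named next were chosen after their values were seen. Lox, the cross-linking enzyme, was at the floor in wild type 1 and mutant 1 and between 5.44 and 5.89 in the 4 embryos of the second cross (-3.5, SE 0.13, adjusted p = 5.8e-05). Loxl1 read 5.66 and 6.11 against 6.60 to 7.29, P3h3 4.51 and 5.27 against 5.97 to 6.90, Dcn 5.17 and 5.85 against 7.40 to 7.63 and Postn 4.69 and 5.16 against 6.51 to 7.34. All 4 passed the test. Col3a1 and Lum did not separate them, at differences of -0.20 (SE 0.14) and -0.34 (SE 0.17). Meningeal list means were 7.59 and 7.65 in the first cross and 7.81 to 8.03 in the second. Crabp2 went the other way, at 11.4 and 11.0 against 9.94 to 10.3 (1.12, SE 0.15, adjusted p = 0.0080). Dlx2, a marker of ventral telencephalon, had 9.04 and 8.43 against 3.20 to 5.80. Ttr had 10.8 in both embryos of the first cross against 13.5 to 14.1 (adjusted p = 0.206). Erythroid list means were 12.1 and 11.9 against 10.7 to 11.3, with 2 of 5 markers called higher. The part of the dissection or of blood in these differences was not tested.

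The 19 genes that did not pass the filter were Col4a3, Col4a4, Col4a6, Col5a3, Col6a4, Col6a5, Col7a1, Col8a1, Col8a2, Col9a1, Col9a2, Col10a1, Col11a2, Col12a1, Col13a1, Col14a1, Col17a1, Col22a1 and Col24a1. They include the growth-plate collagen Col10a1 and the skin collagens Col7a1 and Col17a1, each at 3.02 or less on every array. Just outside the filter were Col8a1, a short-chain collagen of vessels, at 4.05 in wild-type adult 1 and 4.12 in mutant adult 2, and Col11a2, at 4.12 on 1 array. Just inside it were Col6a3, over 4 on 3 arrays, and Col15a1, over 4 on 4. Col24a1, a fibrillar collagen known from developing bone, read 3.69, 3.06 and 3.27 in wild-type and 3.22, 2.65 and 2.96 in mutant adults, and at most 2.20 in embryos, and was not tested.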

How the data were processed

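RNA of 12 samples was hybridised to Affymetrix arrays, each with 45101 probe sets. The deposited values are log2 expression values, 1 per probe set and array, made by the authors with GCRMA per the submitters' processing notes, with version and settings not given in the sources used here. GCRMA models background from probe sequence and gives many low probe sets 1 repeated value, which shortens differences from it. Arrays carry no counts, and their number limits the precision.

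Probe sets with 1 symbol (34945) and a log2 value over 4 on at least 3 arrays (20292) were kept, and the highest-mean probe set per gene gave 11449 genes. Limma 3.58.1 in R 4.3.3 (lmFit, eBayes) was fitted over all 12 arrays with 4 group means and 8 residual degrees of freedom. P-values were adjusted by Benjamini-Hochberg over all genes, and a gene was called under 0.05. The fit was tested on simulated data. Collagen genes were named by class, with values for those with the largest called differences or lowest p and for all of collagen IV, and list genes by lowest p. Other members, Lox to Postn among them, were named after their values were seen. The members and lists were chosen with earlier results of these data known.

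Same-cross embryos correlated in their deviations from group means at 0.14 to 0.51 and others at -0.36 to -0.23, so that embryos varied with their cross. Adult age pairs correlated at -0.01 to 0.27 and other adult pairs at -0.30 to 0.23. The main fit nevertheless left out age and cross, which entered as a block only in an alternative. Other alternatives varied the filter, probe sets, scaling, arrays in the fit, array weights and variance model. Promoter windows are RefSeq's on GRCm38.p6.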

Additional observations from a re-analysis of the deposited data

Results flagged for a closer look

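Col6a2, a chain of collagen VI, had mutants below all wild types in adult cortex (3.97, 3.94 and 4.14 against 4.21, 4.17 and 4.16) and above all wild types in embryos (4.87, 5.08 and 5.16 against 4.46, 4.43 and 4.74). It drew attention because mutants and wild types did not overlap at either stage and lay in opposite order. Taken singly, 2.66% of all genes had mutants below in adults and 3.23% had them above in embryos. The share with both was not counted. The mutant effect in adults minus that in embryos was -0.66 (SE 0.16), which did not pass the test of the difference (limma, unadjusted p = 0.0021, adjusted p = 0.567). Its adult values lie near the filter value of 4. A further Col6a2 probe set gave differences of the same signs, -0.17 in adults and 0.47 in embryos. There the highest mutant adult equalled the lowest wild-type adult (4.03), and the embryonic groups overlapped.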

How the results depend on the processing

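The mutant comparisons and their difference called 0 collagen genes under every alternative tried, except that array weights called 1 in embryos (Col6a2, 0.53, adjusted p = 0.0487), when 42 of all genes were called in place of 4. The stage counts lay between 15 and 18 in wild types and between 16 and 20 in mutants, but the number of genes tested varied. Without a filter 17 of 42 collagen genes were called in wild types, where 9349 of 18193 genes in all were. The main fit called 18 of 23, where 9314 of 11449 genes in all were. The count between crosses was 3 of 23 in the main fit, with 362 of all genes called. It was 1 of 42 without a filter, with 253 of all genes called, and 0 of 23 with only the embryos fitted, with 71. Leaving out 1 array outside the first cross gave 2 or 3. With age pair or cross as a replicate block, the numbers pairing adults by age and embryos by parents, no mutant call changed (Col6a2 in embryos at adjusted p = 0.328), and 20 genes were called between mutant stages in place of 19.

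Signs turned in differences that were not called. In adults, Col23a1 became 0.15 when its probe sets were averaged and Col26a1 0.0828 without mutant 2, with -0.83 as its lowest value. The main Col23a1 probe set gave -0.26 and the others 0.01 and 0.68, none of them called. The last read 4.16, 4.26 and 4.51 in mutant adults against 3.28, 3.86 and 3.74 in wild types, without overlap. In embryos, array weights gave 0.0541 for Col11a1 and 0.0885 for Col6a1. Leaving out mutant embryo 1, the array of the later set, gave 0.61 for Col6a1 and 0.11 for Col4a5. These values are also the upper ends of the ranges given below for 1 embryo left out. Without both embryos of the first cross, chosen after the data had been seen, Col23a1 was -0.10, Col9a3 0.0579 and Col11a1 0.0532. Leaving out 1 embryo gave -0.0145 to 0.45 for Col23a1, -0.25 to 0.0904 for Col11a1, -0.15 to 0.11 for Col4a5 and -0.76 to 0.61 for Col6a1. The causes were not tested. No scaling moved the median of all genes by over 0.1. Embryonic Col25a1 and adult Col18a1, Col2a1, Col5a2, Col3a1 and Col6a3 lie low, in part near the floor, which limits their differences.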
